A study of Mus musculus with 16 samples.

Results

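The genes described are 8 components of the leukaemia inhibitory factor (LIF) pathway: the receptor chains Lifr and Il6st, the kinases Jak1 and Jak2, the transcription factor Stat3, the feedback inhibitor Socs3, and the target genes Pim1 and Gbx2. They were chosen by symbol, with earlier results of these data known, and the 8 rows were found among 34042 genes in the deposited count table. All 8 passed the filter on low counts, which left 18555 genes for testing.

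LIF binds its receptor LIFR, which then pairs with the shared signalling chain gp130, the product of Il6st. The kinases JAK1 and JAK2, held on the inner ends of these chains, phosphorylate them and the transcription factor STAT3, which moves to the nucleus and activates genes that include its own inhibitor Socs3. Mouse embryonic stem cells are known for using this route to sustain naive self-renewal, and stem cells of the later epiblast do not depend on it.

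Bulk RNA sequencing covered 16 libraries of mouse pluripotent cells in 4 groups. The naive cells were embryonic stem (ES) cells, line E14IV-C, kept in 2iL and sampled at passages 12, 13, 15 and 20. This is the only one of the 4 media that holds LIF. The labels give the media by code, and the media also differ in other components such as inhibitors. The part of LIF cannot be told apart from that of these components. Formative stem cells (FS), which model the epiblast between the naive and primed stages, were grown in A3XR. The line 5ar1 was taken at passages 10, 12 and 14 and the line 5ar3 at passages 12, 4 and 5 (FS replicates 1 to 3 and 4 to 6). Epiblast stem cells (EpiSCs), which represent the primed stage, came from the line AF32 in AF at passages 13, 14 and 15 (EpiSC_AF). A second EpiSC line, AFX6 in AFX, was taken at passages 12, 5 and 8 (EpiSC_AFX, replicates 1 to 3). The labels name no mutation or transgene. Replicates were passages of a line, so the p-values measure the spread between passages. In comparisons of groups, the FS spread also holds differences between the lines 5ar1 and 5ar3. Outside FS each group was a single line, so line and medium cannot be told apart, and ES differed from the other groups in line, medium and cell type together. The 3 comparisons with ES share the same ES libraries.

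Libraries held 22069300 to 33290200 counts (rounded to 6 digits). Summed levels of 7 naive markers were 1978 to 2131 CPM (read counts scaled to library size) in ES and 90.8 to 256 CPM in the other libraries. The 5 formative and primed markers summed to at most 117 CPM in ES and 971 to 2399 CPM elsewhere, so these marker levels separated the ES libraries from the rest as labelled. Mitochondrial rRNA took 40.1% of the counts of the ES library at passage 12, against 11.0% to 27.8% in the other 15. Without that library, 6 of the 8 genes were still called higher in ES in each comparison, with log2 fold changes against FS from 2.74 for Il6st to 6.29 for Gbx2. Over all genes, 11449 were then called against FS, 10118 against EpiSC_AFX and 10505 against EpiSC_AF. Of these, 46.4% to 46.6% were higher in ES. CPM values below are on the TMM scale, which adjusts each library size for differences in RNA composition. With total counts alone, the median log2 fold change of all tested genes between ES and FS moved from -0.04 to -0.40, and the share of called genes that were higher in ES moved from 47.6% to 29.5%.

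Sequence before the RefSeq start sites is shown for Socs3, the 1 gene of the 8 with a match to the general STAT motif, and for Gbx2, which has no match and had the largest fold difference of the 8 between ES and FS. The sequences are from RefSeq on GRCm38.p6, are read 5′ to 3′ on the minus strand, and overlap no annotated exon of the gene. The Gbx2 stretch lies before the annotated gene, and the Socs3 stretch within an intron of a longer annotated Socs3 transcript. Capitals mark the motif TTCNNNGAA, a palindrome that reads the same on both strands.
Socs3, chr11:117969452-117969616: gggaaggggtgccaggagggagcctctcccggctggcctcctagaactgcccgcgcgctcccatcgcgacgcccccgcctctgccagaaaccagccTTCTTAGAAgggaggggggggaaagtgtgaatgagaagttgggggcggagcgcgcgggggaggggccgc
Gbx2, chr1:89931180-89931426: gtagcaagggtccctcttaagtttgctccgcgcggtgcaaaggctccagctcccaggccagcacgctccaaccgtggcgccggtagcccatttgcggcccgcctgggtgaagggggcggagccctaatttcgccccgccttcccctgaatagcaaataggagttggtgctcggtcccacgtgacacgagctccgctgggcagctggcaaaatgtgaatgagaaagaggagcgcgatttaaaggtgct

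The search used 300-base RefSeq windows, from 250 bases before to 50 bases after each start site. All 8 genes matched the table, with 10 windows among them, and TTCNNNGAA was present in 1 window. The Socs3 match began 154 bases before the RefSeq start site. The motif was present in 8.3% of all 32851 windows. The stricter form TTCCNGGAA, a subset of the first, was present in 1.15% of all windows and in none of the 10. Of 16 genes listed as STAT3 targets, 14 had a window, with 17 windows among them, and 3 held TTCNNNGAA (Socs3, Sbno2 and Icam1). This count is by gene, where the 8.3% is by window. Sbno2 and Icam1 also held the stricter form. A match describes these letters only, and no binding was measured.

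Lifr, Il6st, Stat3, Socs3, Pim1 and Gbx2 were all higher in ES than in FS, by 6.43-fold for Il6st to 74.3-fold for Gbx2. The same 6 genes were higher in ES than in EpiSC_AFX and EpiSC_AF. Levels of the kinases Jak1 and Jak2 did not pass the test in any of these 3 comparisons. Across all tested genes, 29.9% were called higher in ES than in FS, 26.2% higher than in EpiSC_AFX and 27% higher than in EpiSC_AF (edgeR, adjusted p under 0.05), against 6 of the 8 genes each time. The median log2 fold change of the 8 genes was 3.20 against FS, beside -0.04 over all tested genes. In bulk samples, fewer cells of a type and less RNA per cell cannot be told apart.

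**Figure D1:**
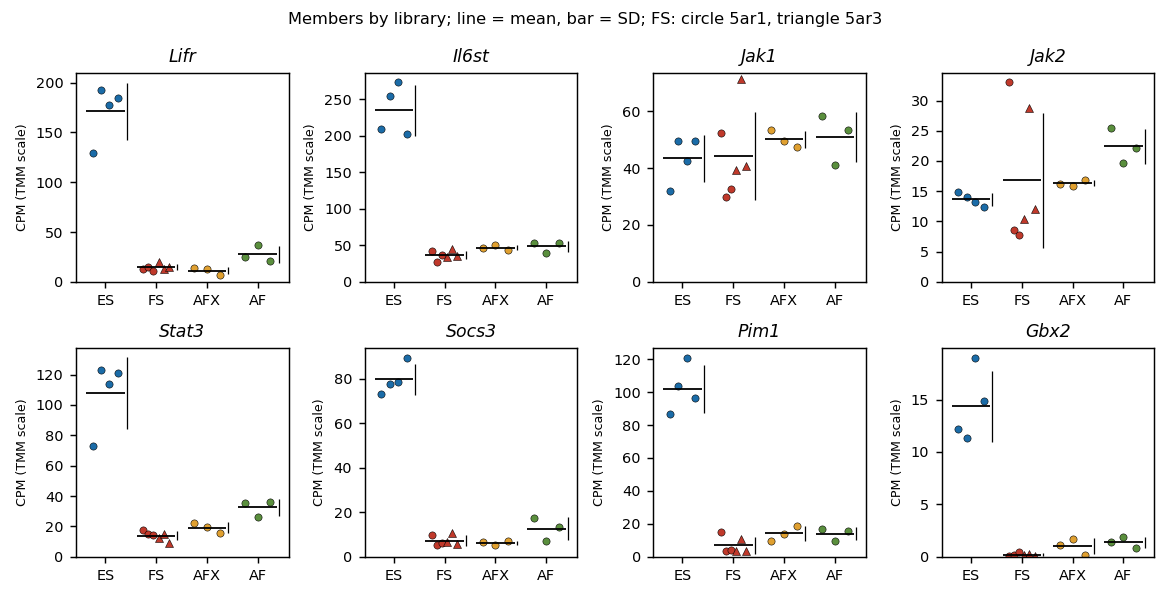
Levels of the 8 genes in CPM on the TMM scale (vertical axis, from 0) in each library of ES, FS, EpiSC_AFX and EpiSC_AF. Points are libraries (in FS, circles are 5ar1 and triangles 5ar3), horizontal lines are means and vertical bars are SDs. The ES points of Lifr, Il6st, Stat3, Socs3, Pim1 and Gbx2 lie above every other library, and those of Jak1 and Jak2 do not.

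Lifr, on chromosome 15 (GRCm38, chr15:7090614-7197489, plus strand), encodes the chain that recognises LIF. Its levels in the 4 ES libraries, in passage order, were 129, 193, 178 and 184 CPM. The FS libraries ran from 11.3 to 20.1 CPM with a median of 13.8 CPM. The EpiSC_AFX libraries were at 13.8, 12.5 and 7.02 CPM, and the EpiSC_AF libraries at 25.2, 37.1 and 20.5 CPM. The lowest ES library was thus above the highest of the others, while FS and EpiSC_AFX overlapped and EpiSC_AF lay above both. Lifr was 11.8-fold higher in ES than in FS (log2 fold change 3.56 ± 0.21 SE, edgeR adjusted p = 2.21e-10), 15.4-fold higher than in EpiSC_AFX (adjusted p = 4.8e-09) and 6.20-fold higher than in EpiSC_AF (adjusted p = 2.57e-07).

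Il6st (chr13:112464070-112510086, plus strand) encodes gp130, the chain shared by the receptors of the interleukin 6 family. The ES libraries held 209, 254, 273 and 202 CPM. The FS libraries held 27.7 to 44.3 CPM with a median of 35.9 CPM, EpiSC_AFX 46.8, 50.3 and 42.9 CPM, and EpiSC_AF 53.7, 39.7 and 52.5 CPM. All ES libraries were high, and the other 3 groups overlapped with one another. Il6st was 6.43-fold higher in ES than in FS (log2 fold change 2.68 ± 0.14 SE, edgeR adjusted p = 3.99e-11), 5.03-fold higher than in EpiSC_AFX (adjusted p = 9.01e-09) and 4.83-fold higher than in EpiSC_AF (adjusted p = 1.17e-08). While Lifr averaged 11.1 CPM in EpiSC_AFX, Il6st had a mean of at least 36.5 CPM in each group grown without LIF.

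Jak1 (chr4:101152367-101265282, minus strand), a kinase bound to gp130 and needed for its signalling, had group means of 43.4 to 50.9 CPM. The ES libraries were at 32.1, 49.6, 42.5 and 49.6 CPM, FS at 29.8 to 71.2 CPM with a median of 39.9 CPM, EpiSC_AFX at 53.4, 49.4 and 47.4 CPM, and EpiSC_AF at 58.4, 41.0 and 53.4 CPM. Every group overlapped with every other. The log2 fold change of Jak1 between ES and FS was -0.03 with a 95% interval from -0.47 to 0.42 (edgeR adjusted p = 0.92). Against EpiSC_AFX it was -0.20 (interval -0.72 to 0.32, adjusted p = 0.506) and against EpiSC_AF -0.23 (interval -0.75 to 0.29, adjusted p = 0.45). These intervals leave out differences of the size seen for Lifr or Il6st.

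Jak2 (chr19:29251828-29313080, plus strand), the related kinase that also associates with gp130, had an SD of 66.6% of its mean in FS, a wider relative spread than that of all other members but Pim1 and Gbx2. Its ES libraries were at 14.9, 14.1, 13.2 and 12.5 CPM, EpiSC_AFX at 16.3, 15.8 and 16.8 CPM, and EpiSC_AF at 25.5, 19.6 and 22.2 CPM. The FS libraries spread from 7.75 to 33.1 CPM around a median of 11.2 CPM. The ES levels of Jak2 lay inside the FS range and below every EpiSC library. The log2 fold change between ES and FS was -0.30 (95% interval -1.03 to 0.43, edgeR adjusted p = 0.468), against EpiSC_AFX -0.26 (interval -1.11 to 0.60, adjusted p = 0.617) and against EpiSC_AF -0.72 (interval -1.57 to 0.13, adjusted p = 0.14). When only the ES and EpiSC_AF libraries were fitted, the last difference passed the test (log2 fold change -0.75, edgeR adjusted p = 0.00141).

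Stat3 (chr11:100885098-100939540, minus strand), the transcription factor of the pathway, held 73.2, 123, 114 and 121 CPM in the ES libraries. The lowest of these was the library at passage 12 with the high share of mitochondrial rRNA. The FS libraries held 8.76 to 17.9 CPM with a median of 14.6 CPM, EpiSC_AFX 22.3, 19.9 and 15.6 CPM, and EpiSC_AF 35.6, 26.1 and 36.0 CPM. ES lay above all other libraries, EpiSC_AF came next with no overlap with the remaining groups, and FS and EpiSC_AFX overlapped. Stat3 was 7.77-fold higher in ES than in FS (log2 fold change 2.96 ± 0.19 SE, edgeR adjusted p = 5.44e-10), 5.60-fold higher than in EpiSC_AFX (adjusted p = 1.59e-07) and 3.31-fold higher than in EpiSC_AF (adjusted p = 6.94e-06). Without the library at passage 12 the log2 fold change against FS was 3.10.

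Socs3 (chr11:117966079-117970047, minus strand) encodes the inhibitor that STAT3 induces and that binds gp130 and the JAKs to end signalling. The ES libraries held 73.3, 77.8, 78.8 and 89.6 CPM. The FS libraries held 5.10 to 10.6 CPM with a median of 6.27 CPM, EpiSC_AFX 6.78, 5.25 and 6.98 CPM, and EpiSC_AF 17.4, 6.96 and 13.5 CPM. The ES libraries were the closest to one another of any of the 6 genes that were higher there (SD 8.67% of the mean), and EpiSC_AF was spread from the level of the FS libraries to above them. Socs3 was 10.9-fold higher in ES than in FS (log2 fold change 3.45 ± 0.24 SE, edgeR adjusted p = 1.45e-09), 12.6-fold higher than in EpiSC_AFX (adjusted p = 4.41e-08) and 6.34-fold higher than in EpiSC_AF (adjusted p = 9.64e-07).

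Pim1 (chr17:29490753-29496112, plus strand), a serine/threonine kinase gene activated by STAT3, held 86.7, 104, 121 and 96.2 CPM in ES. The FS libraries held 3.70 to 15.3 CPM with a median of 4.01 CPM, EpiSC_AFX 9.71, 14.1 and 18.6 CPM, and EpiSC_AF 17.1, 9.54 and 15.6 CPM. ES was above every other library, and 4 of the 6 FS libraries were below every EpiSC library. Pim1 was 14.6-fold higher in ES than in FS (log2 fold change 3.87 ± 0.38 SE, edgeR adjusted p = 1.35e-07), 7.19-fold higher than in EpiSC_AFX (adjusted p = 8.29e-05) and 7.24-fold higher than in EpiSC_AF (adjusted p = 7.56e-05).

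Gbx2 (chr1:89927956-89931179, minus strand), a homeobox gene that can sustain mouse ES cells downstream of LIF, had the lowest mean CPM of the 8 in each group but ES. It held 12.2, 11.3, 19.0 and 14.9 CPM in ES, from 177 to 416 counts a library. In FS it held 0.0371 to 0.474 CPM with a median of 0.140 CPM, from 1 to 14 counts. EpiSC_AFX held 1.11, 1.68 and 0.203 CPM and EpiSC_AF 1.41, 1.86 and 0.849 CPM. The ES libraries were high, the EpiSC libraries low and the FS libraries lowest, with 1 EpiSC_AFX library inside the FS range. Gbx2 was 74.3-fold higher in ES than in FS (log2 fold change 6.21 ± 0.52 SE, edgeR adjusted p = 1.45e-08), 14.3-fold higher than in EpiSC_AFX (adjusted p = 2.9e-05) and 10.4-fold higher than in EpiSC_AF (adjusted p = 7.59e-05).

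Some exons of these genes overlap a gene on the other strand. Gbx2 shares 946 exonic bases with D130058E05Rik, which averaged 3.22 CPM in ES, 0.175 CPM in FS, 0.973 CPM in EpiSC_AFX and 0.895 CPM in EpiSC_AF. In the groups without LIF these levels were of the order of those of Gbx2 itself. Pim1 shares 488 bases with Gm26885, whose group means were at most 0.477 CPM. Stat3 shares 72 bases with Stat5a and Jak1 shares 4 with Raver2. The library kit keeps the strand, but the strand setting of the counting is not given in the sources used here, so reads of Gbx2 and D130058E05Rik may not be separable, also in the comparisons of FS with the EpiSC groups.

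**Figure D2:**
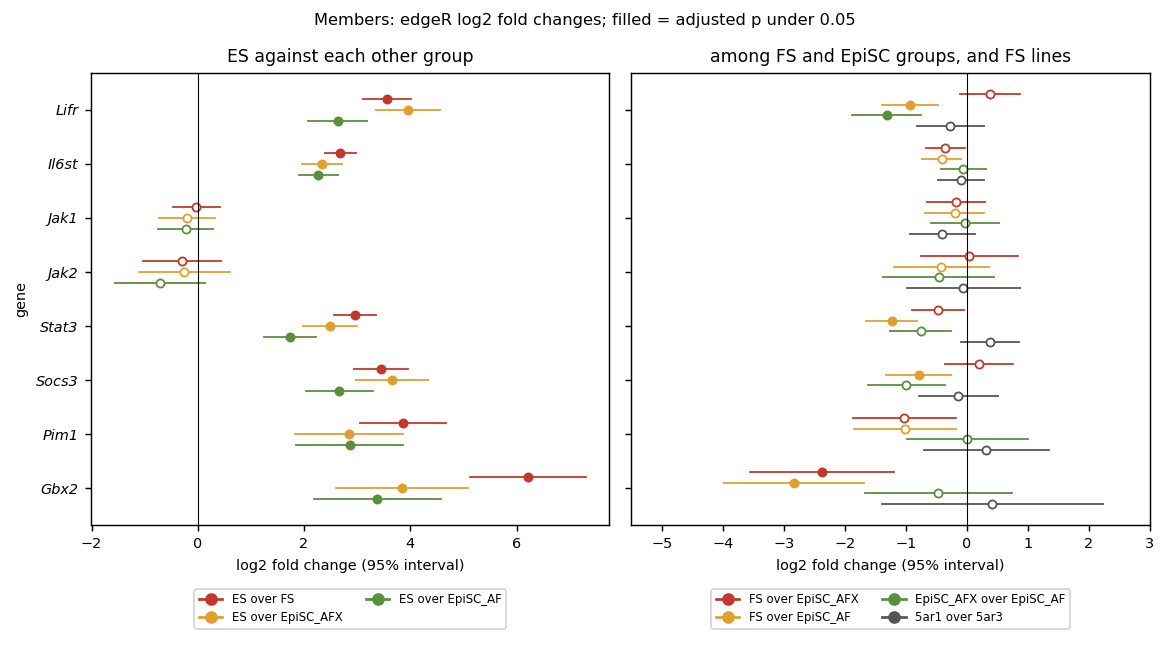
Log2 fold changes (horizontal axis) of the 8 genes from edgeR with 95% intervals, for ES against each other group (left) and among the FS and EpiSC groups and the FS lines (right). Filled points passed an adjusted p of 0.05. On the left 6 genes are filled in all 3 comparisons and Jak1 and Jak2 in none. On the right the filled points are Gbx2, Lifr, Stat3 and Socs3.

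Levels can be set beside each other between genes once divided by exon length. In ES the order of mean CPM per kilobase was Pim1 (30.3 ± 4.28 SD, n = 4), Socs3 (27.6 ± 2.39), Il6st (21.1 ± 3.11), Lifr (15.9 ± 2.66), Stat3 (11.3 ± 2.46), Gbx2 (6.59 ± 1.58), Jak1 (6.01 ± 1.15) and Jak2 (2.71 ± 0.207). The gap between neighbours in this order was smaller than both SDs for Gbx2 and Jak1, smaller than the SD of Pim1 but not that of Socs3 for this pair, and larger than both SDs for the other pairs. Jak1 had the highest mean per kilobase of the 8 in each of the other groups, at 6.13 ± 2.12 in FS (SD, n = 6), 6.93 ± 0.422 in EpiSC_AFX and 7.05 ± 1.24 in EpiSC_AF (SD, n = 3 each). The order therefore changed between ES and the rest through the other genes, with Jak1 itself at similar levels per kilobase. In EpiSC_AF the means of Jak2, Il6st, Socs3 and Pim1 lay between 4.18 and 4.46 CPM per kilobase, within their spreads.

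Among the groups grown without LIF, differences were smaller. FS was lower than EpiSC_AF for 4 of the 8 genes (8.81% of all tested genes were called lower). These were Gbx2 (7.16-fold, edgeR adjusted p = 0.00154), Stat3 (2.35-fold, adjusted p = 0.000394), Lifr (1.91-fold, adjusted p = 0.00734) and Socs3 (1.72-fold, adjusted p = 0.0409). With total counts alone, 2 of the 8 were called, with the calls of Lifr (edgeR adjusted p = 0.0634) and Socs3 (adjusted p = 0.124) lost. The number called over all tested genes then went from 3089 to 2407. The Lifr call was also lost with FS line 5ar3 only (edgeR adjusted p = 0.056). It was lost too without the EpiSC_AF library at passage 14, which held the highest Lifr level of the group (adjusted p = 0.0866). The Socs3 call was lost in 11 of 20 alternatives, with an adjusted p of up to 0.326 without the EpiSC_AF library at passage 13.

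FS was lower than EpiSC_AFX for Gbx2 only, by 5.18-fold (log2 fold change -2.37, edgeR adjusted p = 0.02), where 2.1% of all tested genes were called lower. This call was lost without the EpiSC_AFX library at passage 12 (adjusted p = 0.0655) or at passage 5 (adjusted p = 0.167). Pim1 had a log2 fold change of -1.02 between FS and EpiSC_AFX (edgeR adjusted p = 0.163) and -1.01 between FS and EpiSC_AF (adjusted p = 0.0939). Without the FS library 5ar1 at passage 10, its highest value in FS, the Pim1 differences passed the test at log2 fold changes of -1.42 (adjusted p = 0.0207) and -1.41 (adjusted p = 0.00863). Pim1 stayed without a call in 19 of 20 alternatives against EpiSC_AFX and in 18 of 20 against EpiSC_AF.

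The 2 EpiSC lines differed in Lifr, which was 2.49-fold lower in EpiSC_AFX than in EpiSC_AF (edgeR adjusted p = 0.00831), where 2.83% of all tested genes were called lower. The Lifr difference did not pass without EpiSC_AF passage 14 (adjusted p = 0.0561) or EpiSC_AFX passage 8 (adjusted p = 0.0543). Stat3 (log2 fold change -0.76, adjusted p = 0.0873) and Socs3 (-0.99, adjusted p = 0.0763) did not pass in the edgeR test of all 16 libraries. With the DESeq2 Wald test their adjusted p-values were 0.0374 and 0.0289.

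Summed markers of other cell types had their highest group medians in EpiSC_AF. Summed levels of 5 primitive endoderm markers were 24.3, 65.1 and 42.3 CPM in EpiSC_AF at passages 13, 14 and 15, 3.86 to 21.5 CPM in EpiSC_AFX and 3.11 to 17.3 CPM in FS. The 8 fibroblast markers summed to 89.5, 43.8 and 66.5 CPM in the same EpiSC_AF libraries, a median of 19.1 CPM in EpiSC_AFX, 20.4 to 45.1 CPM in FS and 5.32 to 5.47 CPM in ES, where 4 of the 8 were at 3 counts or fewer in every library. The 5 trophoblast markers summed to 43.0 to 140 CPM in EpiSC_AF, 14.4 to 32.4 CPM in EpiSC_AFX and 18.0 to 47.3 CPM in FS. Lifr was highest in the EpiSC_AF library with most primitive endoderm marker RNA, and Socs3 in the one with most fibroblast marker RNA. Socs3 (17.4, 6.96 and 13.5 CPM at passages 13, 14 and 15) kept the fibroblast marker order. Lifr (25.2, 37.1 and 20.5 CPM) and Stat3 (35.6, 26.1 and 36.0 CPM) kept neither order throughout. Whether other cell types were present, and their part in the Lifr, Stat3 and Socs3 values, was not tested.

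Within FS, none of the 8 genes was called between the lines 5ar1 and 5ar3 by edgeR, and none had an unadjusted p under 0.05 (0 also passed with the DESeq2 Wald test), where 3.88% of all tested genes were called. The 95% interval of the log2 fold change was narrowest for Il6st (-0.47 to 0.29) and widest for Gbx2 (-1.40 to 2.24). Jak2 averaged 16.5 ± 14.4 CPM in 5ar1 and 17.1 ± 10.2 CPM in 5ar3 (SD, n = 3 each). The spread of Jak2 was thus between passages of each line.

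The library at the lowest passage of each line, 5ar1 at passage 10 and 5ar3 at passage 4, held the highest pair of FS values for 6 of the 8 genes: Il6st, Jak1, Jak2, Stat3, Socs3 and Pim1. This held for 15.1% of all tested genes. Jak2 was at 33.1 and 28.8 CPM in these libraries and at most 12.1 CPM in the other 4 FS libraries. Pim1 was at 15.3 and 11.0 CPM against at most 4.30 CPM, while for Stat3 the lower of the pair and the next library were both at 14.7 CPM. Lifr did not follow this order, with its highest FS level, 20.1 CPM, in 5ar3 at passage 12. The pair was picked after the values were seen, as the libraries highest for Pim1 in FS, and the pattern is given as a description. The 5ar3 library at passage 5, a lower passage than that of 5ar1 in the pair, did not share it. It held 12.1 CPM of Jak2, 3.72 CPM of Pim1 and the lowest Stat3 level in FS, 8.76 CPM. The part of passage was not tested. Fibroblast marker sums were 38.7 and 45.1 CPM in the pair and 20.4 to 41.0 CPM in the other FS libraries. Formative and primed marker sums were 1400 and 971 CPM in the pair and 1388 to 2399 CPM in the others. Their part in the pattern was not tested.

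**Figure D3:**
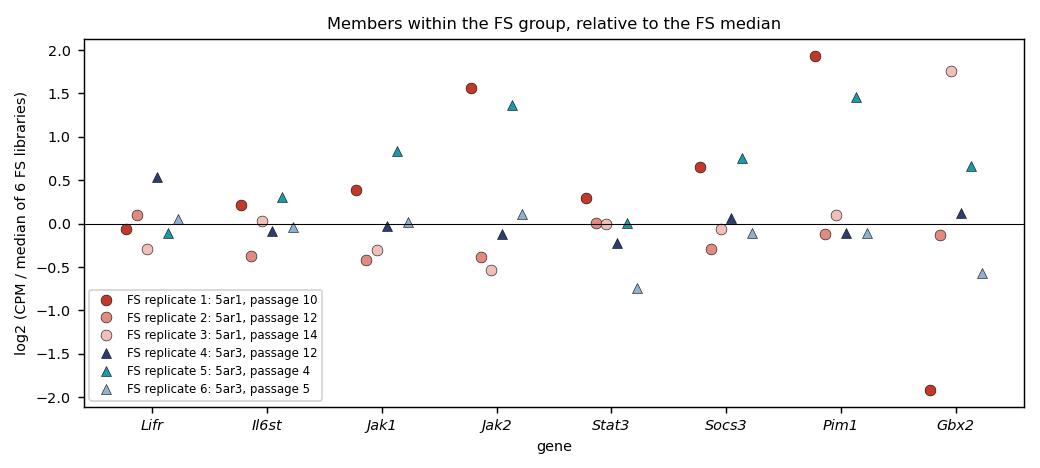
Levels of the 8 genes in the 6 FS libraries as log2 of CPM over the FS median of the gene (vertical axis), with circles for 5ar1 and triangles for 5ar3. Replicates 1 (5ar1, passage 10) and 5 (5ar3, passage 4) are the highest points for Il6st, Jak1, Jak2, Stat3, Socs3 and Pim1, with Jak2 at 33.1 and 28.8 CPM, and not for Lifr or Gbx2.

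Across the 12 libraries grown without LIF, log2 CPM of Jak1 and Jak2 correlated at r = 0.87, Il6st and Pim1 at r = 0.85, and Lifr and Il6st at r = 0.08. These are descriptions over libraries that share lines and passages. Over all 16 libraries Lifr and Il6st correlated at r = 0.93, which rests on the distance between ES and the rest. Among 14804 genes with a mean of at least 1 CPM, those most like a member over the 16 libraries were Catip for Lifr (r = 0.98), Plekhh1 for Il6st (r = 0.99), Vwa3b for Stat3 (r = 0.98), Dnah8 for Socs3 (r = 0.98), B4galt6 for Pim1 (r = 0.97) and Liph for Gbx2 (r = 0.98). For the kinases these were Ccnb2 for Jak1 (r = 0.87) and Adam9 for Jak2 (r = 0.86). Axin2, a feedback inhibitor of Wnt signalling, was the second most like Lifr (r = 0.98), with means of 65.9 CPM in ES, 5.72 CPM in FS, 3.95 CPM in EpiSC_AFX and 16.3 CPM in EpiSC_AF. Axin2 and the genes named for the members higher in ES also had their highest mean in ES. Their r over 16 libraries includes that distance, and their r without ES was not computed.

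The lists of further pathway genes are read beside the shares of all tested genes called between ES and FS, 29.9% higher and 32.9% lower in ES. With total counts alone this background moved too. Then 11257 genes were called in place of 11645, and 29.5% of those called were higher in ES in place of 47.6%. Of 17 ligands and receptors listed, 12 were tested, and with Lifr and Il6st 5 were higher and 4 lower in ES than in FS, with a median log2 fold change of 0.32 beside -0.04 over all tested genes. The share lower was thus close to that of all genes. Il6ra, the chain that recognises interleukin 6, averaged 17.0 ± 4.58 CPM in ES and 0.241 ± 0.166 CPM in FS (SD, n = 4 and 6, edgeR adjusted p = 3.85e-10). Osm, encoding the related ligand oncostatin M, averaged 27.7 ± 3.29 CPM in ES (388 to 687 counts) and had at most 1 count in any library of the other groups. Cntfr, the chain for ciliary neurotrophic factor that also works with LIFR and gp130, went the other way, with 0.0992 CPM in ES and 9.78 ± 4.65 CPM in FS (adjusted p = 2.08e-09). Osmr, the second receptor of oncostatin M, had at most 3 counts in any library. Lif itself averaged 11.0 ± 1.11 CPM in ES and 5.47 ± 2.63 CPM in FS (adjusted p = 0.00468).

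**Figure D4:**
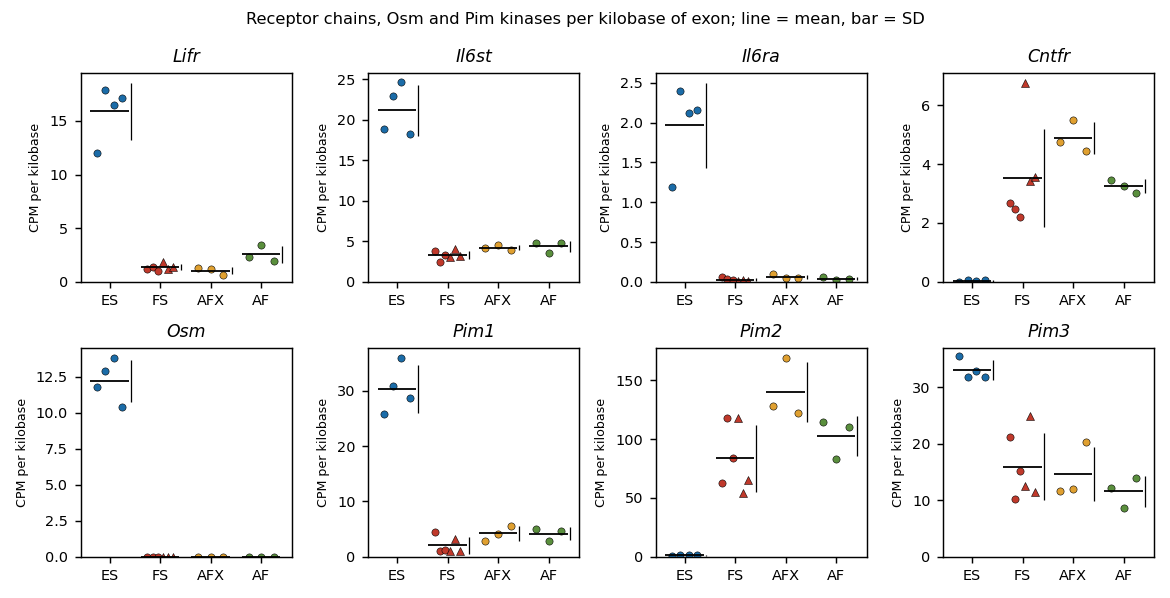
Levels per kilobase of exon (vertical axes, from 0) of receptor chains, the ligand gene Osm and the Pim kinase genes in each library. Lines are means and bars SDs. Lifr, Il6st, Il6ra, Osm, Pim1 and Pim3 are highest in ES, and Cntfr and Pim2 are lowest there.

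In the JAK and STAT family, 7 of 11 genes were higher and 1 lower in ES than in FS (median log2 fold change 0.84), against 29.9% and 32.9% of all tested genes. With total counts alone 5 were higher and 1 lower. Of all genes called, 29.5% were then higher in ES, in place of 47.6%. These are shares of called genes, unlike the 29.9% and 32.9% of tested genes. Jak3, a kinase best known from lymphocytes, was at 41.7 ± 19.2 CPM in ES and 6.72 ± 3.06 CPM in FS (edgeR adjusted p = 1.64e-06). Stat4 was at 3.93 and 1.35 CPM (adjusted p = 0.00226). Tyk2, a further kinase gene of the JAK family, averaged 34.7 ± 4.98 CPM in ES and 15.3 ± 2.87 CPM in FS (SD, n = 4 and 6). Its ES libraries held at least 28.3 CPM and its FS libraries at most 19.5 CPM. Thus the kinases differed among themselves: Jak3 and Tyk2 had higher levels in ES where Jak1 and Jak2 did not pass the test.

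Among 15 inhibitors of the pathway, 8 were higher and 4 lower in ES than in FS (median log2 fold change 0.53), against 29.9% and 32.9% of all tested genes. With total counts alone the count was 4 higher and 5 lower. The share higher in ES among called genes, not among tested genes, was then 29.5% in place of 47.6%. Socs3 had the largest difference of the list. Pias2, of the family of protein inhibitors of activated STAT, was 4.01-fold higher in ES (edgeR adjusted p = 1.38e-10). Socs5, another gene of the Socs family, was 3.15-fold lower (adjusted p = 6.38e-07), and Ptpn1, encoding a phosphatase that acts on JAK2, was 2.14-fold lower (adjusted p = 0.000114). Socs3 thus differed from Socs5 in direction.

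Of 12 genes of the other routes that leave gp130, 5 were higher and 3 lower in ES than in FS (median log2 fold change 0.02), against 29.9% and 32.9% of all tested genes, so that these counts were near the background. With total counts alone 3 were higher and 6 lower. The share higher in ES among called genes, not among tested genes, was then 29.5% in place of 47.6%. Gab1, an adaptor between gp130 and the ERK and PI3 kinase routes, was 10.8-fold higher at 218 ± 57.3 CPM in ES (edgeR adjusted p = 1.17e-08). Yes1, a Src family kinase, was 3.65-fold higher (adjusted p = 4e-10), and Sos1, which activates Ras, 2.15-fold higher (adjusted p = 7.85e-07). Ptpn11, encoding the phosphatase SHP2 that docks on gp130, was 2.07-fold lower (adjusted p = 3.65e-07).

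Of 16 listed STAT3 targets, 13 were higher and 2 lower in ES than in FS, against 29.9% and 32.9% of all tested genes. The list was chosen with earlier results of these data known and holds genes of the naive state such as Tfcp2l1 and Klf5. Its counts are thus a description only. Leaving out Socs3, Pim1 and Gbx2, 10 of 13 were higher, with a median log2 fold change of 4.69, or 3.61 with Pramel7 and Sp5, which had at most 3 counts in every FS library, set at their lower bound. Tfcp2l1, a transcription factor that sustains naive cells, averaged 1724 CPM in ES (17838 to 46526 counts a library) and 4.51 ± 2.79 CPM in FS (edgeR adjusted p = 1.05e-11). Bcl3, a cofactor of NF-kB, averaged 21.8 CPM and 0.125 CPM (adjusted p = 1.16e-09), and Sp5, also a Wnt target, 23.6 CPM and 0.0549 CPM. Pramel7 had 5 to 72 counts in ES libraries and none in any library of the other groups. The lower genes were Myc (8.56 CPM in FS and 1.49 CPM in ES, adjusted p = 0.0013) and Fos (3.18 and 0.742 CPM, adjusted p = 0.000986), and Junb did not pass (log2 fold change 0.49).

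**Figure D5:**
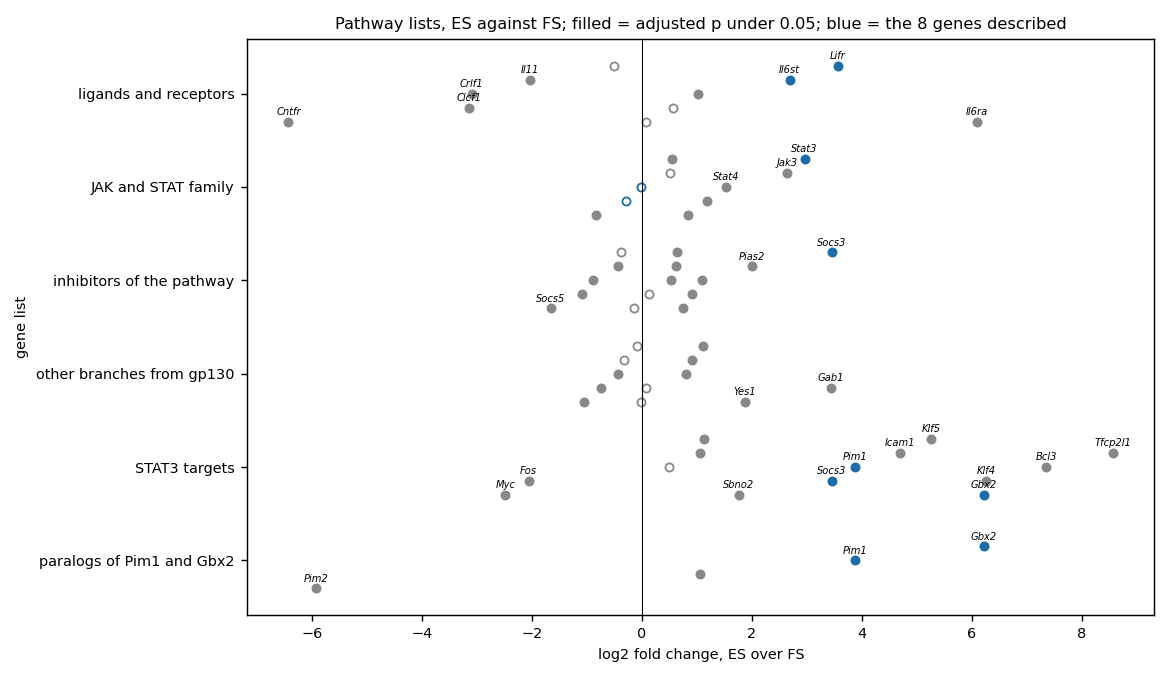
Log2 fold change between ES and FS (horizontal axis) for genes of the 6 pathway lists (vertical axis), with filled points for an adjusted p under 0.05 and blue for the 8 genes described. Genes at 3 counts or fewer in every library of either group (Osm, Sp5 and Pramel7) and 1 gene of the JAK and STAT family are left out. Most STAT3 targets lie to the right, with Myc and Fos to the left, and Pim2 lies at -5.93 where Pim1 lies at 3.87.

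The 3 Pim kinase genes, which encode closely related enzymes, differed in direction. Pim2 averaged 3.77 ± 1.33 CPM in ES, 234 ± 79.3 CPM in FS, 391 ± 70.9 CPM in EpiSC_AFX and 287 ± 47.3 CPM in EpiSC_AF, and was 61.1-fold lower in ES than in FS (edgeR adjusted p = 8.32e-11). Pim3 averaged 80.1 ± 4.27 CPM in ES and 38.6 ± 14.3 CPM in FS (adjusted p = 0.000816). Per kilobase of exon, Pim1 held 30.3 and Pim2 1.35 CPM in ES, and Pim1 held 2.07 and Pim2 83.8 CPM in FS. Pim1 was thus the more abundant of this pair in ES and Pim2 in FS, and the direction of each was the same with DESeq2 size factors and with total counts alone.

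The EpiSC comparisons gave similar counts for the targets. Without Socs3, Pim1 and Gbx2, 10 of 13 were higher and 3 lower in ES than in EpiSC_AFX, and 10 higher and 2 lower than in EpiSC_AF. Of all tested genes, 26.2% were higher and 28.5% lower in ES than in EpiSC_AFX, and 27% higher and 29.7% lower than in EpiSC_AF. Of all 16 targets, 6 were lower in FS than in EpiSC_AFX (2.1% of all tested genes) and 4 lower than in EpiSC_AF (8.81%), with none higher in FS. With total counts alone, 3 were lower than in EpiSC_AFX, with the calls of Bcl3, Icam1 and Mcl1 lost, and 3 lower than in EpiSC_AF, with that of Socs3 lost. Over all tested genes, the number called then went from 927 to 728 against EpiSC_AFX and from 3089 to 2407 against EpiSC_AF. The share of these higher in FS went from 57.9% to 72.7% and from 47.1% to 55.7%. Klf5, a naive transcription factor gene that was singled out after its values were seen, was lower in FS than in both, at 2.04 ± 0.624 CPM in FS, 10.8 ± 3.28 CPM in EpiSC_AFX (edgeR adjusted p = 3.04e-05) and 9.87 ± 3.15 CPM in EpiSC_AF (adjusted p = 1.49e-05). Like Gbx2, Klf5 was thus highest in ES and lowest in FS.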

How the data were processed

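The authors deposited a table of raw counts per gene, which were used as they stand. Per the submitters' processing notes, Trim Galore, TopHat2 2.1.0 and featureCounts 1.5.0 were used with the genome build mm10. The annotation release and the strand setting of the counting are not given in the sources used here. Of the count columns, 6 matched no sample label and were not used.

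Counts were tested with edgeR 4.0.16 in R 4.3.3: filterByExpr by group, TMM scaling and a robust quasi-likelihood fit with a mean per group over all 16 libraries, or a mean per line for the FS lines. Calls needed a Benjamini-Hochberg adjusted p under 0.05 over all 18555 tested genes. The procedure was tested on simulated data with far fewer genes changed in ES than were called here. That test does not cover a change of this extent. CPM per kilobase used exon lengths of GENCODE release M21, which also gave the gene positions. Genes whose libraries all had 3 counts or fewer in a group were taken to be at the floor, which covers counting error only. Correlations used log2 CPM with a prior count of 2.

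The 8 genes, the pathway and marker lists and the naming rule were chosen with earlier results of these data known. From each list the rule names the 4 tested genes with the largest absolute log2 fold change between ES and FS, and the genes needed to account for a count of 5 or fewer. For each of the 8 genes it names the 3 with the highest Pearson r over the libraries, among genes with a mean of at least 1 CPM, and the text gives the first. Osmr, Klf5 and Tyk2, and Axin2 as the second for Lifr, were named after their values were seen. One gene that the rule names is not reported here. Alternatives were other scalings (DESeq2 1.42.0 size factors, total counts), other filters, no mitochondrial rRNA genes, the DESeq2 Wald test, passage as a covariate, fits of only the groups compared, single FS lines and leaving out each library. The list counts under other scalings were added after the data were seen.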

Additional observations from a re-analysis of the deposited data

How the results depend on the processing

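The 6 genes higher in ES were called in the same direction under all alternatives: 21 against FS and 15 against each EpiSC group. Counts of the 8 genes called among the other groups were less stable. Between FS and EpiSC_AF, 4 became 2 with total counts only. Between FS and EpiSC_AFX, 1 became 0 with only the groups compared and with FS line 5ar1 only, and leaving out 1 library gave 0 to 2. Between the EpiSC groups, 1 became 3 with the DESeq2 Wald test and with only the groups compared, and leaving out 1 library gave 0 to 1. The cause was not tested. With only the 2 FS lines fitted, Gbx2 did not pass the filter and has no value.

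Counts over all genes also moved. FS against EpiSC_AFX gave 927 genes, 1639 with the DESeq2 Wald test, 1429 with one mean per line, 557 with only the groups compared, 1765 with line 5ar3 only and as few as 380 without 1 library. The EpiSC groups gave 791, 1383 with DESeq2, 2276 with only the groups compared and as few as 351 without 1 library. The FS lines gave 720, 1292 with DESeq2, 431 with passage as a covariate, 179 with only the groups compared and 289 to 1567 without 1 library. FS against EpiSC_AF gave 3089 and as few as 1799. With total counts only, the share of called genes that were higher in ES moved from 48.0% to 35.3% against EpiSC_AFX and from 47.6% to 33.7% against EpiSC_AF, and the share higher in FS than in EpiSC_AFX moved from 57.9% to 72.7%. No paired analysis was possible because the labels give passages and no replicate numbers shared between groups.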
